A study of Mus musculus with 2 samples.

Results

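The genes described here are 10 chemokine-system genes of the aortic wall: the chemokine ligands Ccl2, Ccl7, Ccl11, Cxcl1, Cxcl9, Cxcl10, Cxcl12, Cxcl16 and Cx3cl1, and the chemokine-scavenging receptor Ackr3. They were taken by symbol from the 27998 genes of both count tables, and all 10 had a row in each. In the young library 9 of them had at least 1 unique molecular identifier (UMI, 1 counted mRNA molecule), and in the old library 10 did. Single cells came from the aortic lining of C57BL6/J mice, a wild-type inbred strain: 1 animal of 8 weeks and 1 of 18 months, neither with a transgene or treatment in the labels. The lining was loosened with trypsin for 10 minutes and lifted off with a scalpel after the adventitia, the outer coat, had been removed, and droplet 3′ libraries were made. With 1 library per age there is no replicate, so no test between ages or between classes was made. Every interval below is an exact 95% interval for counting error only, which leaves out differences between animals, dissections and runs, and age cannot be told apart from the library.

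Chemokines are small secreted proteins that bind G protein-coupled receptors on leukocytes and direct their migration along a gradient. In an artery they are made by endothelium, by fibroblasts and by macrophages, and they are held on the vessel surface by proteoglycans. Inflammatory chemokines such as Ccl2, Ccl7 and Cxcl1 are induced within hours by cytokines through NF-kB, Cxcl9 and Cxcl10 are induced by interferon-gamma, and Cxcl12 is made in resting tissue. Cxcl16 and Cx3cl1 are made as transmembrane proteins that are cut loose by the proteases Adam10 and Adam17. Ackr3 binds Cxcl12 without coupling to G proteins and removes it from the extracellular space.

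In the GRCm38 build with GENCODE vM21 gene models, Ccl2 (chr11:82035571-82037453), Ccl7 (chr11:82045712-82047525) and Ccl11 (chr11:82057823-82062955) lie next to each other on the plus strand with no annotated gene between them. Ccl2 and Ccl7 are 8258 bases apart, and Ccl7 and Ccl11 10297 bases. Cxcl9 (chr5:92321347-92328079) and Cxcl10 (chr5:92346638-92348889) are also neighbours, on the minus strand and 18558 bases apart. Cxcl1 (chr5:90891241-90893115) lies elsewhere on the same chromosome. Cxcl12 (chr6:117168535-117181367), Ackr3 (chr1:90203980-90216751), Cx3cl1 (chr8:94772009-94782427) and Cxcl16 (chr11:70453983-70459984, minus strand) lie apart from the others. The 3′ assay reads the end of a transcript. No 50-base stretch in the last 500 bases of any of the 10 genes' transcripts occurred in a transcript of another gene, so the paralogs Ccl2 and Ccl7 share no such stretch there.

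RefSeq promoter entries on GRCm38.p6 were matched for 6 of the 10 genes. The 250 bases before the start are shown for Cxcl1, whose level differed in opposite directions between the libraries in endothelial and fibroblast cells, and for the neighbours Cxcl9 and Cxcl10, which had most of their UMIs in different classes. Capitals mark matches on either strand to 4 motifs: GGGA and TTCC with 2 free bases between them (NF-kB type), GAAA and GAAA with 2 free bases between them (interferon-response type), TTC and GAA with 3 free bases between them (STAT type), and TATAAA. Where matches overlap the whole run is in capitals.
Cxcl1 (chr5:90890995-90891244, plus strand): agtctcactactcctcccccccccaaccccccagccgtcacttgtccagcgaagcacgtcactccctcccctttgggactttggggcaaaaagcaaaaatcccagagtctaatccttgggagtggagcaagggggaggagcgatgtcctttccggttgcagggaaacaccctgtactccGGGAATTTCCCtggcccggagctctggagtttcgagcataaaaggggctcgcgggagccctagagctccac
Cxcl9 (chr5:92328080-92328329, minus strand): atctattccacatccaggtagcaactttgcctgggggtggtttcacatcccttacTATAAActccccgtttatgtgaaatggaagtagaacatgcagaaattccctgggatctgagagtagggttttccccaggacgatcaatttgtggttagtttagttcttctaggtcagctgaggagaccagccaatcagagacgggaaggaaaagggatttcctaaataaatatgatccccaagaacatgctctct
Cxcl10 (chr5:92348890-92349139, minus strand): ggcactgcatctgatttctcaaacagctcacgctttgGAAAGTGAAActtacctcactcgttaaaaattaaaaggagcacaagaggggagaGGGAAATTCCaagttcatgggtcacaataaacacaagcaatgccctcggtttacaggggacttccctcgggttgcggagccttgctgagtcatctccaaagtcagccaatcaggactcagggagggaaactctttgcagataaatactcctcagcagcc
The NF-kB-type motif was found in the Cxcl1 window on both strands, in overlapping matches whose first bases lie 71 and 70 bases before the start, and in the Cxcl10 window 159 bases before it. Over all 32851 RefSeq promoter windows of 250 bases, 1.21% held this motif. The Cxcl10 window also held the interferon-response-type motif at 213 bases, found in 2.98% of windows. The Cxcl9 window held TATAAA at 195 bases, found in 12.4% of windows, and the STAT-type motif, found in 7.02% of windows, was in none of the 6 promoters. A match is a description of the letters and not of binding.

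The young library held 1366 barcodes and 12576023 UMIs with a median of 7558.5 per barcode, and the old library 3408 barcodes and 19171045 UMIs with a median of 4737, so single molecules were seen more often per young cell. The 2 libraries shared 11 barcode sequences. Cells were clustered without the 10 genes and named from marker lists. Endothelial-like (EC-like) cells numbered 1081 young and 2387 old, fibroblast-like cells 239 and 572, macrophage-like cells 13 and 155, and T or NK-like cells 10 and 123. EC-like cells were split into 2 subtypes. Subtype 1 had clusters marked by Coch, Sost and Adra2a (447 and 463 cells). In the clusters of subtype 2 (634 and 1924), Bcan, Isl1 and Frzb were seen on average in more cells than the subtype 1 genes. This marking was weak. A cluster led by Sox18, Scx and Emcn held 601 of the young subtype 2 cells. One led by Mal, Dll1 and Ldb2 held 1257 of the old ones. None of the subtype 2 genes was among the 10 leading genes of either. Only a cluster of 12 young and 634 old cells was led by Bcan and Isl1. Ratios between ages in subtype 2 thus compare mostly different clusters. Fibroblast-like cells were split into subtype A, marked by Gdf10, Mfap4 and F3 (102 and 83 cells), and subtype B, marked by Dact2, Igfbp5 and Sema3c (137 and 489). The largest EC-like clusters were mostly of 1 library each, so clusters were compared only after merging into these classes. Endothelial markers summed to 8867 (young) and 8513 (old) UMIs per 1000000 UMIs of the class (CPM) in EC-like cells and to 534 and 1001 in fibroblast-like cells. Fibroblast markers summed to 34062 and 20478 CPM in fibroblast-like cells and to 676 and 664 in EC-like cells. The T or NK-like class also held B-like cells. In old, B-cell markers summed to 1160.1 CPM in this class, beside 2323 CPM of T and NK markers. A finer clustering set 30 old cells apart as B-like.

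The ligands divided by cell class. Ccl11 was read almost only in fibroblast-like cells. Ccl2, Ccl7 and Cxcl1 were highest in fibroblast-like and macrophage-like cells, Cxcl10 in old macrophage-like cells, Cxcl12 in fibroblast-like cells of subtype A, and Cx3cl1 in EC-like cells and a small unnamed cluster. Ackr3 was high in both fibroblast-like and EC-like cells. Between fibroblast-like and EC-like cells of the young library, 6 of 8 measured genes (at least 20 UMIs in the pair) were at least 2-fold higher in fibroblast-like cells, where 12.8% of all 11479 genes were, and 2 were at least 2-fold lower, where 18.1% were. In the old library 7 of 10 were higher and 3 lower, against 11.4% and 21.2% of all 11961 genes. Old macrophage-like cells were at least 2-fold above old EC-like cells for 5 of 10 genes (Ccl2, Ccl7, Cxcl1, Cxcl10 and Cxcl16), where 12.6% of all genes were, and below them for 2 (Cx3cl1 and Ackr3), where 28.5% were. They were above old fibroblast-like cells for 2 of 8 (Cxcl10 and Cxcl16), against 13.0% of all genes, and below for 3 (Ccl11, Cxcl12 and Ackr3), against 21.4%.

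Subtypes of 1 class also differed. Fibroblast-like subtype B was at least 2-fold above A for 3 of 7 measured genes in young (Ccl2, Ccl7 and Ackr3), where 4.56% of all genes were, and below it for 2 (Cxcl12 and Cxcl16), where 6.27% were. In old it was above for 3 (Ccl2, Ccl11 and Ackr3; 9.65% of all genes) and below for 2 (Ccl7 and Cxcl12; 5.29%). EC-like subtype 2 was above subtype 1 for 1 of 6 genes in young (Ccl11, on 21 UMIs; 3.06% of all genes) and below it for 1 (Cxcl1; 2.09%). In old it was above for 2 of 9 (Ccl11 and Cxcl9; 3.50%) and below for 0 (1.78%). The Ccl11 log2 intervals included 0 in young (-0.18 to 2.92) and in old (-0.21 to 2.54, on 6 and 46 UMIs). Cxcl9 rested mainly on 1 cell.

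**Figure D1:**
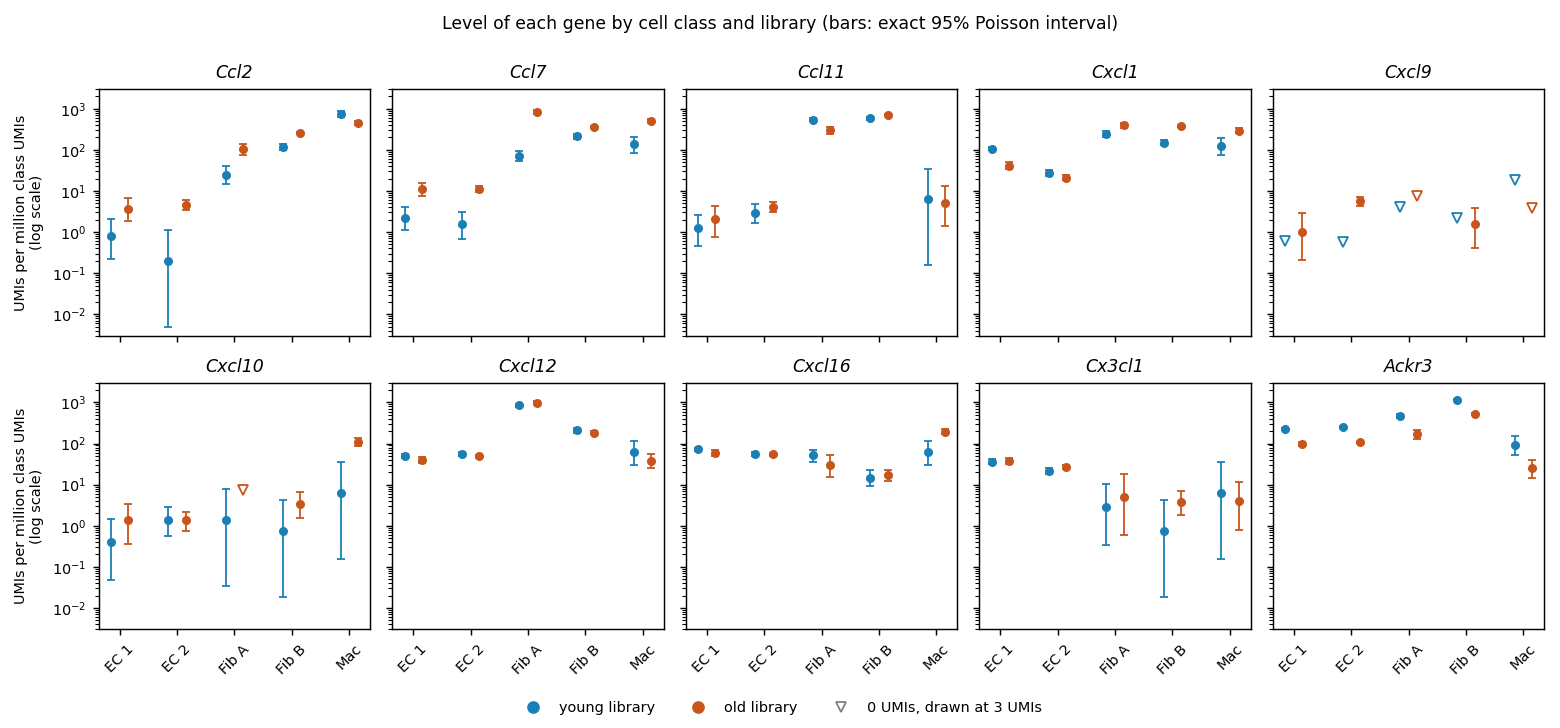
Level of each of the 10 genes in CPM (log axis) in EC-like subtypes 1 and 2 (EC 1, EC 2), fibroblast-like subtypes A and B (Fib A, Fib B) and macrophage-like cells (Mac), young in blue and old in orange. Points are sums over all cells of a class and bars exact 95% Poisson intervals; open triangles mark classes with 0 UMIs, drawn at the level of 3 UMIs. Ackr3 is lower in old in each of the 4 EC-like and fibroblast-like subtypes, and Ccl11 sits above 300 CPM only in fibroblast-like cells.

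Between the ages, 3 of the 10 measured genes were at least 2-fold higher in old EC-like cells (Ccl2, Ccl7 and Cxcl9), where 3.71% of all 12018 measured genes were, and 2 were at least 2-fold lower (Cxcl1 and Ackr3), where 3.32% were. As log2 ratios of old over young, the median of the 10 genes was 0.30 and that of all genes 0.07. In fibroblast-like cells, 3 of 7 measured genes were at least 2-fold higher in old (Ccl2, Ccl7 and Cxcl1), where 3.57% of all 10185 genes were, and 0 were at least 2-fold lower, where 4.99% were. Here the medians were 0.22 and -0.10.

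Within each of the 4 subtypes Ackr3 was at least 2-fold lower in old. In EC-like subtype 1, 1 of 6 genes was higher (Ccl7; 2.35% of all genes) and 2 lower (Cxcl1 and Ackr3; 3.13%), and in subtype 2, 3 of 10 were higher (Ccl2, Ccl7 and Cxcl9; 3.63%) and 1 lower (Ackr3; 2.91%). In fibroblast-like subtype A, 2 of 7 were higher (Ccl2 and Ccl7; 3.54%) and 1 lower (Ackr3; 11.2%), and in subtype B, 2 of 7 were higher (Ccl2 and Cxcl1; 4.08%) and 1 lower (Ackr3; 3.72%). The paragraphs that follow give the values behind these counts, gene by gene, with how few cells hold them. For 3 of the 5 genes counted in EC-like cells that matters. The shares of old EC-like cells with Ccl2 and Ccl7 lay between those of T or NK-like and erythroid-like cells. Cxcl9 rested mainly on 1 cell.

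**Figure D2:**
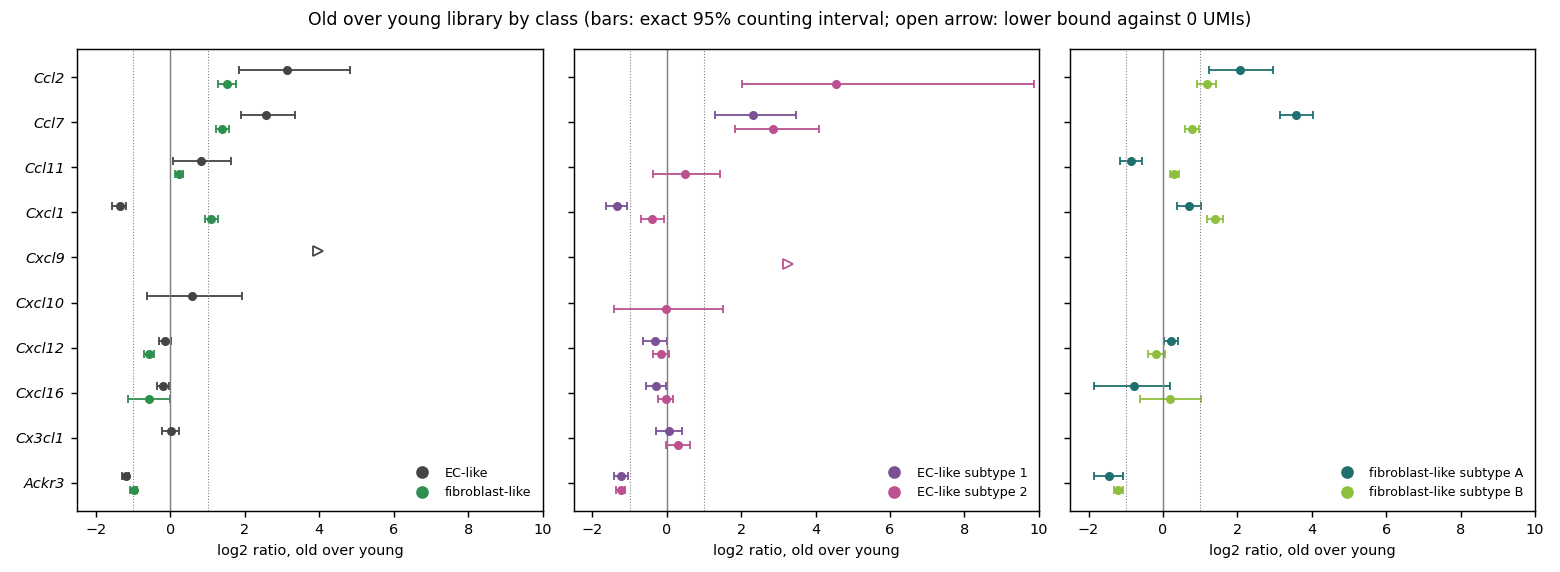
Log2 ratio of old over young level for each gene with at least 20 UMIs over both libraries, in all EC-like and fibroblast-like cells (left), in the 2 EC-like subtypes (middle) and in the 2 fibroblast-like subtypes (right). Points are ratios of UMI shares, bars exact 95% counting intervals, dotted lines 2-fold, and open arrows a lower bound against 0 young UMIs. Ackr3 lies between -1.46 and -0.99 throughout, Cxcl1 lies on opposite sides of 0 in EC-like and fibroblast-like cells, and Ccl7 differs most between fibroblast-like subtypes.

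Ccl2 (MCP-1), the main ligand that draws Ccr2-bearing monocytes, had 172 UMIs (83.6 CPM, interval 71.6 to 97.1) in young and 715 UMIs (238 CPM, 221 to 256) in old fibroblast-like cells. The log2 ratio was 1.51 (1.27 to 1.76). Pooled over subtypes, old cells were thus higher by 2.85-fold. The share of cells with a Ccl2 UMI was 13.4% in young and 25.9% in old. After each cell was thinned to 3000 UMIs the shares were 8.93% and 20.5%. The young sum was the more concentrated: the top 5 young cells, all of subtype B, held 55.2% of it, and the top 5 old cells, also all of subtype B, held 22.4%. Without those 5 cells of each library the log2 ratio was 2.30. Subtype B was above subtype A in both libraries, at 115 against 25 CPM in young and 258 against 105 CPM in old. It made up 137 of 239 young and 489 of 572 old fibroblast-like cells, so the pooled ratio covers different mixes of subtypes. Within B the log2 ratio was 1.17 (0.91 to 1.43), or 2.24-fold. Within A it was 2.07 (1.24 to 2.96), a value that depended on a small cluster described under Ccl7.

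In macrophage-like cells Ccl2 stood at 452 CPM in old (346 UMIs in 75 of 155 cells), 1.90-fold above old fibroblast-like cells. The top 5 of these cells held 27.2%. The 13 young macrophage-like cells had 738 CPM, but 1 cell held 58.0% of the 119 UMIs and a second 26.9%. Those 2 barcodes had 29167 and 33990 UMIs, 4.12 and 4.80 times the median of their class, and carried 116 and 80 UMIs of the 10 endothelial markers beside 226 and 941 of the macrophage markers. Neither was called a doublet, and the part of mixed barcodes in the young value was not tested. No ratio between ages was formed for macrophage-like cells.

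In EC-like cells Ccl2 had 5 young and 62 old UMIs, each in a cell of its own, and the log2 ratio was 3.14 (1.84 to 4.82), or 1.16 after thinning. The share of old EC-like cells with a UMI was 2.60% at a median of 4995 UMIs per cell. It lay between the shares of the 123 old T or NK-like cells (2.44%, median 2441) and the 37 old erythroid-like cells (5.41%, median 4152). These classes are small and differ in depth. The T or NK-like cells held 1845 CPM of fibroblast markers, against 664 in old EC-like cells. The part of background RNA in the old EC-like share was not tested. The 10 macrophage markers moved with the Ccl2 ratio. They summed to 14.1 CPM in young EC-like cells, with 4 of 10 at 0 (Csf1r, Adgre1, Fcgr1 and Mrc1), and to 113 CPM in old ones with 0 at 0. Their part in this ratio was not tested.

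Ccl7 (MCP-3), a ligand of Ccr2 and other CC receptors, followed Ccl2 across classes. It had 334 UMIs (162 CPM, 145 to 181) in young and 1282 UMIs (427 CPM, 404 to 451) in old fibroblast-like cells, a log2 ratio of 1.39 (1.22 to 1.57). A Ccl7 UMI was found in 19.7% of young and 36.7% of old cells, and in 12.5% and 31.2% after thinning. The top 5 cells held 44.9% in young and 25.9% in old, and without them the ratio was 1.82.

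The subtypes, whose mix differed between the libraries as given for Ccl2, behaved differently for Ccl7. In subtype B the level was 211 CPM (young) and 362 CPM (old), with a log2 ratio of 0.78 (0.58 to 0.97). In subtype A it was 71.0 CPM (young) and 847 CPM (old), with a log2 ratio of 3.58 (3.15 to 4.03). Subtype B was thus 2.98-fold above A in young and 2.34-fold below it in old. Both subtype A sums rested on few cells: 1 young cell held 84.3% of 51 UMIs, and 1 old cell with 127 UMIs held 37.6% of 338. A finer clustering placed 20 old cells of subtype A, led by Prg4 (lubricin), Ccl19 and Serpina3n, in a cluster with no young cell, and this cluster, chosen after its values were seen, held 317 of the 338 UMIs. On average the 3 subtype A genes were seen in 31.7% of its cells, against 67.7% in the other subtype A cluster of both libraries. None of these genes was among the 10 leading genes of the Prg4 cluster, so it was weakly marked as subtype A. Its cells had a median of 9171 UMIs, against 2768 in the other 63 old cells of subtype A. Without it old subtype A had 106 CPM of Ccl7 and the log2 ratio was 0.58. The Ccl2 ratio in subtype A, 2.07 (1.24 to 2.96), was 0.69 without it, so neither gene was then 2-fold higher.

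Macrophage-like cells of the old library had 501 CPM of Ccl7 (384 UMIs in 58 of 155 cells, top 5 cells 32.3%), against 427 CPM in old fibroblast-like cells. In EC-like cells there were 19 young and 159 old UMIs, with at most 2 per cell. The old share of cells, 6.33%, lay between those of T or NK-like (4.88%) and erythroid-like cells (10.8%). The part of background RNA in this share was not tested.

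Ccl11 (eotaxin-1), the ligand of the eosinophil receptor Ccr3, was the most widely detected ligand of fibroblast-like cells. It had 1173 UMIs (570.2 CPM, 538 to 604) in young and 1996 UMIs (664 CPM, 635 to 694) in old. These sums were spread over many cells: 79.5% of young and 75.2% of old cells had a UMI, the top 5 cells held 10.4% and 5.11%, and it took 39 young and 99 old cells to reach 50% of the sum. The log2 ratio was 0.22 (0.12 to 0.33). Elsewhere Ccl11 was near the floor, with 4 UMIs in old macrophage-like cells and 52 in 2387 old EC-like cells. The share of old EC-like cells with a UMI was 2.14%. It was 4.88% in T or NK-like cells (6 cells, 1 of them with 8 of 14 UMIs) and 8.11% in erythroid-like cells (3 cells). Fibroblast markers summed to 664, 1845 and 291 CPM in these 3 classes.

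The small pooled ratio of Ccl11 covered opposite values. In subtype B it was 583 CPM (young) and 719.8 CPM (old), with a log2 ratio of 0.30 (0.18 to 0.43), and in subtype A it was 545 CPM (young) and 301 CPM (old), with a log2 ratio of -0.86 (-1.17 to -0.56). The subtype A value rested on the 20 cells of the Prg4 cluster. They had 9 Ccl11 UMIs (44.8 CPM), and the other 63 old cells of subtype A had 561 CPM, which gave a ratio of 0.04 to young. With subtypes assigned to each cell by its own UMIs the ratio was -0.22.

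**Figure D3:**
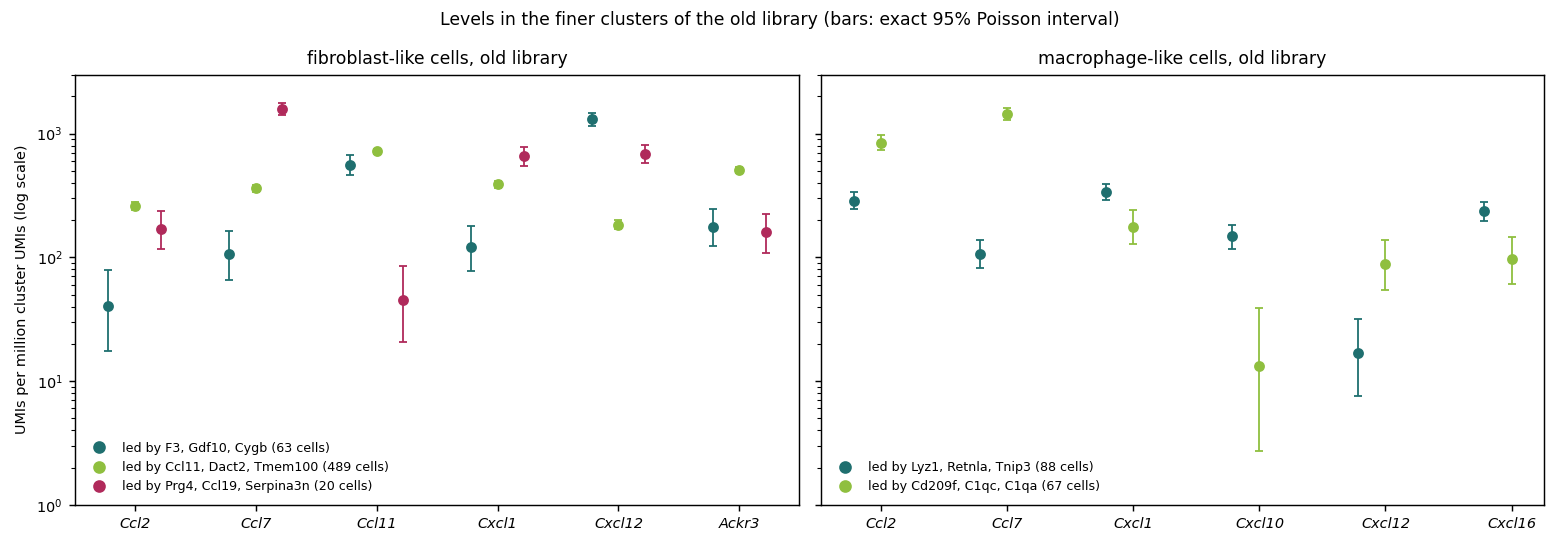
Levels in CPM of the cluster (log axis) in the finer clusters of old fibroblast-like cells (left) and old macrophage-like cells (right), with exact 95% Poisson intervals. In the 20 cells led by Prg4, Ccl7 (1578 CPM) and Cxcl1 (657 CPM) are the highest and Ccl11 (44.8 CPM) the lowest of the 3 fibroblast-like clusters, and the 2 macrophage-like clusters differ most in Ccl7 and Cxcl10.

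Cxcl1 (KC), a neutrophil attractant that binds Cxcr2, was lower in old EC-like cells and higher in old fibroblast-like cells. EC-like cells had 663 UMIs (65.9 CPM, 61.0 to 71.2) in young and 359 UMIs (25.4 CPM, 22.9 to 28.2) in old, a log2 ratio of -1.37 (-1.56 to -1.19). Fibroblast-like cells had 372 UMIs (181 CPM, 163 to 200.2) in young and 1166 UMIs (388 CPM, 366 to 411) in old, a ratio of 1.10 (0.93 to 1.27). Fibroblast-like cells were thus 2.74-fold above EC-like cells in the young library and 15.3-fold above them in the old. The share of cells with a UMI after thinning was 10.3% and 5.95% in EC-like cells and 19.6% and 36.2% in fibroblast-like cells. The fibroblast-like ratio was just under 2-fold as a mean of each cell's own CPM (0.92) and after thinning (0.97). The share of T or NK-like cells of the old library with a Cxcl1 UMI was 1.63%, below the 11.1% of old EC-like cells. These 2 shares were not thinned, and the T or NK-like cells were shallower (median 2441 against 4995 UMIs). The part of background RNA was not tested.

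The EC-like sums were spread over many cells, with 18.1% of young and 8.64% of old UMIs in the top 5. In fibroblast-like cells the top 5 held 31.7% of young and 12.3% of old UMIs. The young top 5 had 15 to 39 UMIs each and were mostly of subtype A. The ratios differed between subtypes. Subtype 1 of the EC-like cells had 106 CPM (young) and 41.5 CPM (old), with a log2 ratio of -1.35 (-1.64 to -1.06). Subtype 2 had 27.7 and 21.2 CPM, a ratio of -0.39 (-0.70 to -0.08), and it made up more of the old cells, so the mean of the 2 subtypes was -0.87 where the pooled value was -1.37. In fibroblast-like cells the ratio was 1.39 (1.17 to 1.62) in subtype B and 0.69 (0.37 to 1.01) in subtype A. In subtype A the 20 cells of the Prg4 cluster held 132 of 156 old UMIs, and without them the ratio was -1.0. The young subtype A sum of 174 UMIs also leaned on few cells, those named above.

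A list of 6 genes induced by tissue handling (Fos, Jun, Junb, Atf3, Egr1 and Hspa1a) was summed beside Cxcl1. In EC-like cells it stood at 3844 CPM (young) and 1773 CPM (old), with all 6 genes detected in at least 25% of young cells and 5 of 6 in old. In fibroblast-like cells it was 5514 and 3946 CPM, lower in old where Cxcl1 was higher. Its part in either ratio was not tested. In macrophage-like cells Cxcl1 was at 291 CPM in old, where 1 cell with 48 UMIs held 21.5% and the top 5 held 48.9%, and at 124 CPM on 20 UMIs in young.

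Cxcl9 (MIG), an interferon-gamma-induced ligand of Cxcr3 on T cells, was read in 15 old cells and in no young cell. EC-like cells had 0 UMIs in young, where 0 of 1081 cells allows a share of up to 0.278% at 3 counts (exact upper limit 0.341%), and 66 in old. Against a floor of 3 UMIs over the young class this was at least 15.7-fold higher, a bound set by that floor. The exact counting interval of the log2 ratio starts at 3.63. The 66 UMIs lay in 9 cells: 1 cell with 49 UMIs held 74.2%, a second with 10 UMIs held 15.2%, and the top 5 held 93.9%. The 49-UMI cell had 8220 UMIs in all, 42 of them from endothelial markers, 4 from fibroblast markers and 0 from macrophage markers, and it had no Cxcl10 UMI. Without the 5 top cells the old class had 4 UMIs, as few as the fibroblast-like cells. Macrophage-like cells had 0 UMIs in 155 old cells. A pair of barcodes thus held most of the class's Cxcl9.

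Cxcl10 (IP-10), the Cxcr3 ligand encoded next to Cxcl9, had most of its UMIs in macrophage-like cells. Of the old EC-like cells, 9 had Cxcl9, 14 had Cxcl10 and 1 had both, the cell with 10 Cxcl9 UMIs. Old macrophage-like cells had 83 UMIs (108 CPM, 86.3 to 134) in 28 of 155 cells, with 12% in the top cell and 43.4% in the top 5. Old EC-like cells had 19 UMIs (1.35 CPM) in 14 cells and young ones 9 (0.895 CPM) in 7 cells, a log2 ratio of 0.59 (-0.62 to 1.92), so no difference was detectable at this depth. Fibroblast-like cells had 2 young and 9 old UMIs. Old macrophage-like cells were 80.5-fold above old EC-like cells and 36.2-fold above old fibroblast-like cells.

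The 2 finer clusters of old macrophage-like cells differed in the ligands they held. The 88 cells led by Lyz1 and Retnla had 148 CPM of Cxcl10, 339 of Cxcl1 and 237 of Cxcl16. The 67 cells led by Cd209f and the complement genes C1qc and C1qa had 13.3, 177 and 97.4 CPM of these. For the CC ligands the order was the other way: Ccl7 stood at 107 CPM in the first and 1443 CPM in the second cluster, and Ccl2 at 287 and 846 CPM. These clusters were compared after their values were seen, and 11 of the 13 young macrophage-like cells fell in the first.

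Cxcl12 (SDF-1), the ligand of Cxcr4 and Ackr3 that holds leukocytes and progenitors in tissue, differed between the fibroblast subtypes in both libraries. In subtype A it stood at 856 CPM (789 to 926) in young and 995 CPM (899.7 to 1098) in old, and in subtype B at 208 CPM (185 to 234) and 184 CPM (168 to 201). Subtype A was 4.11-fold above B in young and 5.41-fold in old. Within subtypes the ages were close, with log2 ratios of 0.22 (0.03 to 0.40) in A and -0.18 (-0.40 to 0.04) in B. Pooled fibroblast-like cells had 435 CPM (young) and 292 CPM (old), with a log2 ratio of -0.58 (-0.71 to -0.44). Subtype A made up 102 of 239 young but 83 of 572 old fibroblast-like cells, and the mean of the 2 subtypes' ratios was 0.02. The top 5 cells held 19.1% of young and 12.7% of old fibroblast-like UMIs.

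In EC-like cells Cxcl12 had 530 UMIs (52.7 CPM, 48.3 to 57.4) in young and 671 UMIs (47.5 CPM, 44.0 to 51.3) in old, a log2 ratio of -0.15 (-0.32 to 0.02). It was detected in 13.9% of young and 12.5% of old cells after thinning, and the top 5 cells held 6.98% and 5.22%. The interval allows a difference of up to 0.32 on this scale in the direction of young. Without thinning, 2.44% of old T or NK-like cells had a UMI, against 21.3% of old EC-like cells. The former were shallower, with a median of 2441 against 4995 UMIs, and the part of background RNA was not tested.

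Ackr3 (CXCR7), the scavenger of Cxcl12, was lower in old in EC-like and fibroblast-like cells. EC-like cells had 2420 UMIs (241 CPM, 231 to 250.5) in young and 1474 UMIs (104 CPM, 99.2 to 109.9) in old, a log2 ratio of -1.20 (-1.30 to -1.11). Fibroblast-like cells had 1902 UMIs (925 CPM, 883 to 967) in young and 1396 UMIs (465 CPM, 440.5 to 489.6) in old, a ratio of -0.99 (-1.09 to -0.89). The old level was thus 2.30-fold lower in EC-like and 1.99-fold lower in fibroblast-like cells. A stricter cell filter gave -1.02 in fibroblast-like cells, inside this interval. A class total without mitochondrial, ribosomal and haemoglobin genes raised their ratio by 0.15, away from 2-fold. No small group of cells carried these sums, since the top 5 cells held 3.26% and 1.70% in EC-like and 8.04% and 3.37% in fibroblast-like cells. After thinning, 48.0% of young and 26.2% of old EC-like cells had a UMI, and 83.5% and 72.8% of fibroblast-like cells.

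The subtypes kept this ratio closely. It was -1.23 (-1.42 to -1.05) in EC-like subtype 1, -1.24 (-1.36 to -1.13) in EC-like subtype 2, -1.46 (-1.86 to -1.08) in fibroblast-like subtype A and -1.20 (-1.31 to -1.09) in subtype B. In subtype B the gene was detected in 99.3% of young cells, at 1172 CPM, and in 87.9% of old cells, at 509.9 CPM. Subtype B was above subtype A by 2.53-fold in young and 3.04-fold in old, the reverse of the order of Cxcl12, its ligand. Macrophage-like cells had 15 young and 19 old UMIs (93.1 and 24.8 CPM), and no ratio was formed. The deep pair of young barcodes described for Ccl2 held 3 and 2 of the 15. Endothelial markers summed to 2736 CPM in young and 1585 CPM in old macrophage-like cells, and to 4741 CPM in the 5 old ones with the most Ackr3. Their part was not tested. The unnamed cluster went the other way, with 5 young and 44 old UMIs (46.8 and 107 CPM).

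Cxcl16, a transmembrane ligand of Cxcr6 that also binds oxidised lipoprotein, was spread over many EC-like cells. It had 642 UMIs (63.8 CPM, 59.0 to 69.0) in young and 788 UMIs (55.8 CPM, 52.0 to 59.9) in old, a log2 ratio of -0.19 (-0.35 to -0.04). The top 5 cells held 5.61% and 3.55%, and 15.3% and 14.7% of thinned cells had a UMI. The level was not even. In a finer clustering, 757 old cells led by Dll1, Mal and Ldb2 had 42.2 CPM (36.5 to 48.6). The next largest endothelial cluster of old cells, 502 led by Slc26a4, Emcn and Bcan, had 83.9 CPM (74.8 to 93.9). These clusters were compared after their values were seen. Cxcl16 was at 196 CPM in old macrophage-like cells (150 UMIs, top 5 cells 29.3%), 3.51-fold above old EC-like cells. Fibroblast-like cells had 57 young UMIs (27.7 CPM) and 56 old ones (18.6 CPM), and the ratio was -0.57 (-1.13 to -0.01), with 21.1% and 17.9% in the top 5 cells. By subtype the ratio was -0.78 (-1.85 to 0.20) in A and 0.18 (-0.62 to 1.02) in B. Subtype A, which made up fewer of the old cells as given for Cxcl12, was 3.45-fold above B in young.

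Cx3cl1 (fractalkine), the membrane-bound ligand of Cx3cr1 on monocytes, was the most endothelial of the ligands and the closest between ages. EC-like cells had 288 UMIs (28.6 CPM, 25.4 to 32.1) in young and 406 UMIs (28.8 CPM, 26.0 to 31.7) in old, a log2 ratio of 0.01 (-0.22 to 0.23). The interval leaves no room for a 2-fold difference by counting error. The top 5 cells held 10.8% and 4.43%. Subtype 1 was above subtype 2 in both libraries, at 36.1 against 21.5 CPM in young and 37.8 against 26.4 CPM in old. Fibroblast-like cells had 3 young and 12 old UMIs, 1.46 and 3.99 CPM.

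The 10 genes differed widely in how few cells held them. In old EC-like cells the share of the top 5 cells ran from 1.70% for Ackr3 to 93.9% for Cxcl9. In fibroblast-like cells Ackr3 (8.04% young, 3.37% old) and Ccl11 (10.4%, 5.11%) were spread widely, and Ccl2 (55.2%, 22.4%) and Ccl7 (44.9%, 25.9%) were the most concentrated of the genes with at least 20 UMIs in each library. The top 5 are 5 of 239 young but of 572 old fibroblast-like cells, so young and old shares are not on equal terms.

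**Figure D4:**
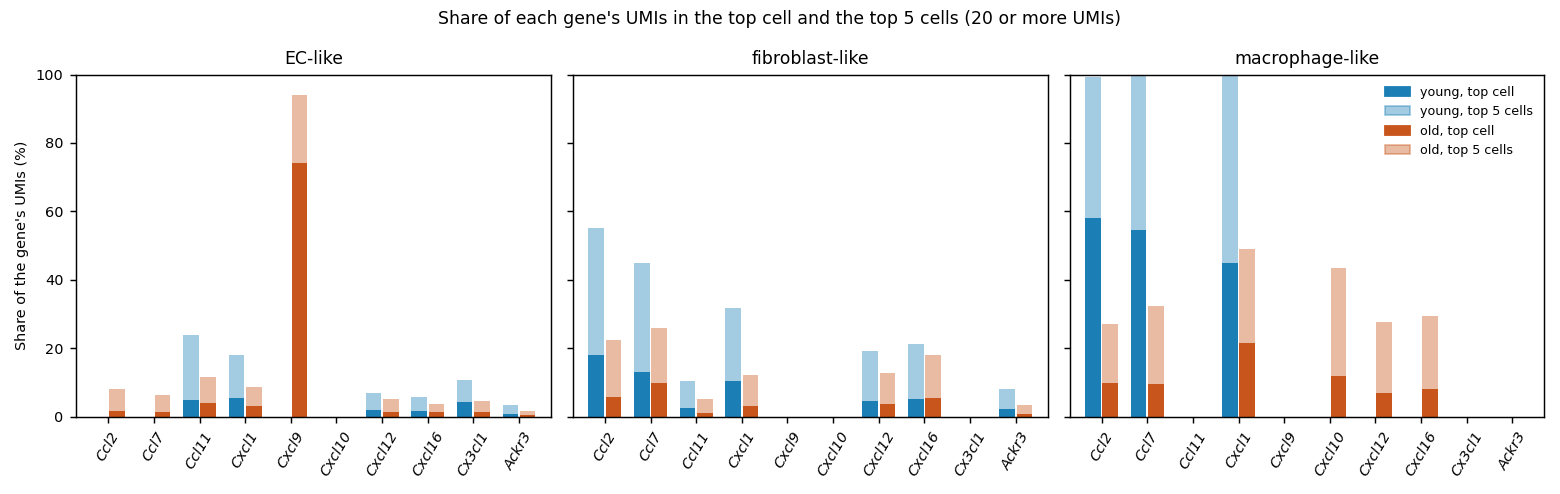
Share of each gene's UMIs held by its top cell (solid) and its top 5 cells (pale) in EC-like, fibroblast-like and macrophage-like cells, for genes with at least 20 UMIs in that class and library, young in blue and old in orange. Cxcl9 in old EC-like cells stands at 93.9% for 5 cells and 74.2% for 1 cell, and the 13 young macrophage-like cells give shares near 100% for Ccl2, Ccl7 and Cxcl1.

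The inflammatory ligands were found together in fibroblast-like cells. After thinning to 3000 UMIs, which removes most of the depth difference between cells, Ccl7 was detected in 40.0% of the 20 young cells with Ccl2 and in 9.80% of the rest. In old cells the shares were 65.3% of 98 and 22.4%. Cxcl1 was detected in 70.0% of young cells with Ccl2 and 14.7% of the rest, and in 65.3% and 28.7% in old. Ccl11 showed no such pairing, at 65.0% and 63.7% in young and 62.2% and 70.5% in old. In old macrophage-like cells Ccl7 was in 52.3% of cells with Ccl2 and 18.3% of the rest, but Cxcl1 in 22.7% and 23.9%. Cells of 1 library are not replicates, so these shares are descriptions.

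Pearson's r of log2(CPM + 1) was taken against 9135 genes over 12 units of at least 20 cells, each a subtype or class in 1 library. The EC-like and fibroblast-like subtypes entered from both libraries and the other classes from old only. The units thus share 2 libraries, are not all different cell types, and differ in depth. The gene most like Ccl2 was Ccl7 (r = 0.96), followed by Bmp2 (0.95) and Peak1 (0.94), and the genes most like Ccl7 were Ccl2 (0.96), Peak1 (0.94) and Bmp2 (0.90). Ccl11 was most like the fibroblast genes Igfbp6 (0.99), Ogn (0.98) and Flrt2 (0.98), and Cx3cl1 most like Krt18, Nebl and Selp (0.97 each). For Cxcl1 these were Mt1 (0.95), Ppm1m and Ap2a2 (0.91 each), for Cxcl12 Irak1, Gadd45g (0.96 each) and Cd63 (0.95), for Cxcl16 Lgmn (0.96), Kifc3 (0.94) and Ccrl2 (0.92), and for Ackr3 Spsb1 (0.98), Trip10 and Fstl1 (0.97 each).

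Where read, the signalling receptors named here for these ligands lay mainly in leukocytes, unlike the scavengers Ackr1 and Ackr2 given below. Ccr2, the receptor of Ccl2 and Ccl7, stood in macrophage-like cells at 199 CPM (young) and 208 CPM (old). It was at 182 and 109.9 CPM in T or NK-like cells, against 0.0995 and 0.992 CPM in EC-like cells. Cxcr6, the receptor of Cxcl16, had 47 UMIs (120.1 CPM) in old T or NK-like cells, and Cx3cr1, the receptor of Cx3cl1, 54 UMIs (70.5 CPM) in old macrophage-like cells. Cxcr4 had 17 UMIs in old macrophage-like cells, 4 in old and 0 in young EC-like cells and 0 in fibroblast-like cells, where Cxcl12 was highest. Ccr3, the receptor of Ccl11, had 0 UMIs in EC-like, fibroblast-like, macrophage-like and T or NK-like cells of both libraries. Of 22 receptors, 2 were measured in EC-like cells and 3 in fibroblast-like cells, and 0 were past 2-fold in either direction between ages. In EC-like cells these were Ccrl2, which holds chemerin (41.1 and 57.7 CPM, log2 ratio 0.49), and the scavenger Ackr4 (41.0 and 44.0 CPM, 0.10). In fibroblast-like cells they were the scavengers Ackr1 (54.0 and 39.9 CPM, -0.43) and Ackr2 (54.4 and 42.9 CPM, -0.34), and Ccrl2 (4.86 and 6.66 CPM, 0.45), so of the scavengers measured only Ackr3 came near or past 2-fold lower.

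Among 27 other chemokine ligands, 11 were measured in EC-like cells, of which 8 were at least 2-fold higher and 0 lower in old, with a median of 2.43. Of all genes 3.71% were higher and 3.32% lower, with a median of 0.07. The genes at the top were Ccl4 (0 young and 49 old UMIs) and Ccl6 (1.39 and 15.9 CPM, 3.52), which old macrophage-like cells held at 725 and 2486 CPM. At the bottom were Ccl5 (6.07 and 6.09 CPM, 0.01) and Ccl27a (18.5 and 17.3 CPM, -0.10). In fibroblast-like cells 11 were measured, 7 higher and 1 lower, with a median of 2.42, beside 3.57% and 4.99% of all genes and their median of -0.10. With a count of 0 set to the floor of 3 UMIs, Ccl6 (3 and 69 UMIs, 3.98 with an interval of 2.37 to 6.29) and Ccl24 (1 and 19 UMIs, 3.70 with an interval of 1.05 to 9.08) stood highest. Ccl4 (0 and 43 UMIs) and Ccl3 (0 and 26 UMIs) had no young UMI. Their place below Ccl24 was set by that floor. Lowest were Ccl27a (20.9 and 14.0 CPM, -0.58) and Ccl21a (13.1 and 6.32 CPM, -1.05). The macrophage marker sum moved with these genes: in fibroblast-like cells it was 21.4 CPM (young) and 146 CPM (old), with 4 of 10 markers at 0 in young and 1 in old. Its part was not tested.

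Of 6 proteases that shed or clear chemokines, 5 were measured in each class. Adam10, which cuts Cxcl16 and Cx3cl1, had 219 and 209 CPM in EC-like cells (log2 ratio -0.07) and 43.3 and 53.6 CPM in fibroblast-like cells (0.31). Adam17 had 42.9 and 32.0 CPM (-0.42) and 32.1 and 19.3 CPM (-0.73). Mmp2, which can trim CC ligands and Cxcl12, had 96.8 and 69.4 CPM (-0.48) and 323 and 199.7 CPM (-0.69). Dpp4, which trims Cxcl10 and Cxcl12, was the 1 protease past 2-fold, at 0.497 and 2.05 CPM in EC-like cells (5 and 29 UMIs, 2.05), and stood at 80.7 and 119 CPM in fibroblast-like cells (0.57).

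The 17 measured genes of an 18-gene interferon-gamma response list, which left out Cxcl9 and Cxcl10, had a median log2 ratio of 0.06 in EC-like cells, with 0 past 2-fold in either direction, beside 3.71% higher and 3.32% lower of all genes and their median of 0.07. The ends were Socs1 (1.89 and 3.33 CPM, 0.82), Gbp4 (77.3 and 106 CPM, 0.46), Ifngr2 (15.9 and 11.8 CPM, -0.44) and Irgm1 (44.3 and 22.5 CPM, -0.97). In fibroblast-like cells 4 of 17 were at least 2-fold higher and 0 lower, with a median of 0.45. Of all genes in these cells 3.57% were higher and 4.99% lower, with a median of -0.10. The feedback inhibitor Socs1 (25.3 and 80.9 CPM, 1.68 with an interval of 1.24 to 2.14) was highest. The GTPase Gbp4 (2.92 and 9.32 CPM) had the same ratio on 6 and 28 UMIs (interval 0.38 to 3.24). Also counted as higher were Ifi47 (11 and 36 UMIs, 1.16) and Gbp5 (7 and 22 UMIs, 1.11), whose interval included 0 (-0.17 to 2.58). The receptor chain Ifngr1 (141 and 101 CPM, -0.49) and Irgm1 (12.2 and 7.65 CPM, -0.67) were lowest.

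Of 13 measured genes of a 14-gene NF-kB list, 0 were at least 2-fold higher and 2 lower in old EC-like cells, beside 3.71% and 3.32% of all genes. The list's median was 0.06 and that of all genes 0.07. The 2 were Nfkbiz (105 and 31.4 CPM, -1.75), a nuclear cofactor of NF-kB, and Zfp36 (494 and 184 CPM, -1.43), which degrades cytokine mRNAs. At the top stood Rel (2.98 and 5.38 CPM, 0.85) and Nfkbie (2.49 and 3.90 CPM, 0.65 with an interval of -0.06 to 1.39). In fibroblast-like cells 3 were higher and 1 lower, with a median of 0.16, beside 3.57% and 4.99% of all genes and their median of -0.10. At the top stood Bcl3 (8.75 and 21.6 CPM, 1.31) and Nfkbie (3.89 and 8.65 CPM, 1.15). The Nfkbie ratio rested on 8 and 26 UMIs, and its interval included 0 (-0.03 to 2.51). At the bottom were Zfp36 (450.1 and 308 CPM, -0.55) and the NF-kB inhibitor Tnfaip3 (17.0 and 7.65 CPM, -1.15).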

How the data were processed

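The labels describe 1 young and 1 old mouse aorta library made with the Chromium 3′ v2 kit. The authors deposited raw UMI counts, 1 table of genes by barcodes per library. Per the submitters' processing notes Cell Ranger and the build GRCm38 were used, and the Cell Ranger version is not given in the sources used here. Barcodes with under 200 genes or over 10% mitochondrial UMIs (1 young, 72 old) were removed, and Scrublet calls (0.440% and 0.180%) were too few for a working caller, so doublets remain possible; 1359 and 3330 cells were kept. Cells were clustered in scanpy 1.11.5 (2000 variable genes, 30 components, 15 neighbours, Leiden resolution 0.5) without the 10 genes, and clusters were named from marker lists. Counts were summed per class and library and given per 1000000 UMIs of the class (CPM). Ratios were called past 2-fold among genes with at least 20 UMIs, with 95% conditional binomial intervals from scipy 1.17.1. Poisson intervals are for sums, and a count of 0 was set to a floor of 3 UMIs per class and library. Subtypes were assigned per cluster; by their own UMIs of the subtype genes, 12 of 239 young and 52 of 572 old fibroblast-like cells lay within 1 UMI of a tie. The interval code was tested on simulated data. All 10 genes are named, with the 3 genes most like each and the 2 highest and 2 lowest of each list. The genes, lists and markers were chosen with earlier results of these data known. Alternatives were a stricter cell filter (at least 500 genes, at most 5% mitochondrial), kept doublets, other classes, totals, thresholds, thinning and leaving out top cells.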

Additional observations from a re-analysis of the deposited data

Results flagged for a closer look

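For 2 genes, classes of the same libraries lay on opposite sides of 0 with both counting intervals clear of it, and neither difference was tested, since there is 1 library per age. Cxcl1 had a log2 ratio of old over young of -1.37 in EC-like cells and 1.10 in fibroblast-like cells. Ccl11 had -0.86 in fibroblast-like subtype A and 0.30 in subtype B, and the subtype A value was 0.04 without the 20 old cells of the Prg4 cluster.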

How the results depend on the processing

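The counts of genes past 2-fold stayed within 1.5 times under all alternatives but 1: with at least 100 UMIs, 3 instead of 5 of the genes were past 2-fold in EC-like cells. In fibroblast-like cells the count ran from 2 to 4 where it was 3. Of 149 class ratios under alternatives 129 stayed inside the counting interval, and of 63 subtype ratios 45 did. Reversals were Cxcl9 in EC-like cells without its 5 top cells (a log2 ratio of -0.07, 4 UMIs against the floor), Ccl11 (-0.28) and Cxcl12 (0.02) in fibroblast-like cells as the mean of the 2 subtypes, and Ccl11 (0.04) and Cxcl1 (-1.0) in subtype A without the Prg4 cluster; the last 2 settings were chosen after seeing the data. By construction the first leaves fewer cells, the second weights subtypes equally and the third leaves out 20 cells. A class total without mitochondrial, ribosomal and haemoglobin genes raised every fibroblast-like ratio by 0.15 (median of all genes from -0.10 to 0.05) and EC-like ratios by 0.03. Classes with under 20 UMIs of a gene, and 13 young macrophage-like cells, limit what can be read. No paired analysis was possible because each age has 1 library.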

Other observations

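A cluster of 15 young and 45 old cells that stayed unnamed, led by Ccl21a, Ppbp, Mmrn1 and Reln, had chemokine levels unlike those of the EC-like cells. In the old library it held 111 Cxcl12 UMIs (269 CPM, 221 to 324), of which 1 cell held 23.4% and 5 cells 63.1%, and 54 Cxcl16 UMIs (131 CPM, 98.2 to 171). Old EC-like cells stood at 47.5 and 55.8 CPM. Endothelial markers summed to 8257 CPM in the young and 6333 CPM in the old cluster, against 8867 and 8513 CPM in EC-like cells. Markers of other cell types were higher in the old cluster than in old EC-like cells. Lymphatic endothelial markers summed to 717 against 26.6 CPM, smooth muscle markers to 3385 against 327 CPM and platelet markers to 763 against 20.1 CPM. The cell with 26 Cxcl12 UMIs carried 22 UMIs of smooth muscle and 12 of T or NK markers. Their part in these levels was not tested. Cx3cl1 was at 131 CPM on 14 UMIs in young and at 75.0 CPM on 31 UMIs in old. The cluster also held 21 of the 91 old Cxcl9 UMIs, in 2 cells with 12 and 9. These 2 cells had 50 and 100 UMIs of endothelial markers and 2 each of macrophage markers, and the one with 12 had 1 Cxcl10 UMI.

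In old T or NK-like cells 14 Ccl11 UMIs were read, 8 of them in 1 cell, and 9 of 10 Cxcl1 UMIs lay in 1 cell.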
